A study of Mus musculus with 32 samples.

Results

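The response of kidney to cisplatin was compared, gene by gene, with the response of liver. The 8 RNA-seq libraries of these organs were chosen from 32 samples of the series, and the quantity compared is the difference between kidney and liver of the log2 change from control to cisplatin. All mice were female C57BL/6J animals aged 6 or 7 months. Treated mice received 10 mg/kg cisplatin by intraperitoneal injection at ZT1 (ZT is hours after lights on), control mice received the same volume of saline, and organs were taken at ZT5, which is 4 h later, although the time label of each sample reads 2 h. Each of the 4 groups (kidney control, kidney cisplatin, liver control, liver cisplatin) holds 2 libraries made from poly-A RNA of whole organs. In such bulk RNA, fewer cells of a type and less RNA per cell cannot be told apart. The labels do not say which animal gave which library, so the p-values measure the spread between libraries.

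Cisplatin crosslinks neighbouring guanines in DNA. These lesions stop RNA polymerase on the transcribed strand, and nucleotide excision repair removes them. The kidney takes up and excretes the drug and its tubules are the main site of cisplatin toxicity, whereas the liver, which also takes up the drug, is seldom the organ that limits its dose. Damage signals reach genes through p53, through stress kinases that activate AP-1 factors such as Jun and Atf3, and through the integrated stress response.

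Between 15619474 and 55043177 reads per library fell on genes. Levels are given as CPM, the counts of a library scaled to its TMM-adjusted total of reads on genes. Of 25059 genes, 16075 had enough reads to be tested and 11780 were measured in both organs, with a mean of at least 1 CPM in the control or the cisplatin group of each. The 16 kidney markers summed to between 21320 and 25870 CPM in the kidney libraries and to between 4.97 and 60.9 CPM in the liver libraries, where the highest sum belonged to cisplatin replicate 2. The 16 liver markers summed to between 154300 and 276300 CPM in liver and were lower in cisplatin kidney (489 and 536 CPM) than in control kidney (621 and 869 CPM), and their part in kidney results on liver genes was not tested. Both cisplatin liver libraries carried more adipocyte marker RNA (14.6 and 95.7 CPM) than both control liver libraries (1.84 and 2.03 CPM). A single gene, Cidec, made up most of these sums, with 12.4 and 94.9 CPM in the cisplatin libraries, while Plin1, Adipoq and Lep stayed under 1 CPM in all liver libraries. Liver cisplatin replicate 2 stood apart from replicate 1 by transcript length. Its level was higher by a median of 1.10 on the log2 scale for 251 genes with under 1 kb of exons and lower by a median log2 of -0.56 for 2182 genes with 8 kb of exons or more. The same medians were 0.40 and -0.25 between the liver control libraries and 0.18 and 0.04 between the kidney cisplatin libraries.

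The difference between the organs passed the test in 1 gene, Plk3, which encodes a polo-like kinase of the DNA damage and stress responses and is a p53 target. The gene spans 5.31 kb at chr4:117128655-117133963 on the minus strand (GRCm38). The test was edgeR's quasi-likelihood test of the organ by treatment interaction, and 0.00622% of the 16075 genes tested passed it. Plk3 stood at 3.48 and 2.95 CPM in the control kidney libraries and at 299 and 322 CPM in the cisplatin kidney libraries. In liver it stood at 19.1 and 16.3 CPM in control libraries and at 63.0 and 64.0 CPM in cisplatin libraries. Control kidney therefore held less Plk3 RNA than control liver and cisplatin kidney held more than cisplatin liver, with no overlap between groups. The log2 change was 6.60 ± 0.31 (SE) in kidney and 1.84 ± 0.25 in liver, and the difference of 4.75 ± 0.37 had an adjusted p of 0.00414. With either kidney control library left out, the difference stayed at 4.64 or 4.87 with an adjusted p of 0.124 or 0.0865.

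Over all genes tested, 912 had an unadjusted interaction p under 0.05. DESeq2 called 130 genes (64 with the larger value in kidney and 66 in liver), and limma-voom with sample quality weights called 1. With the replicate number fitted as a block within each organ, edgeR called 47. Of the 61 genes named here and tested for the interaction, 34 that did not pass in the reported edgeR fit passed in DESeq2. With the block 24 such genes passed, and none did in limma-voom. Among the 11780 genes measured in both organs, the unadjusted p was under 0.05 with a larger kidney value for 292 genes (2.48%). It was under 0.05 with a larger liver value for 301 genes (2.56%). Together these shares are near the rate that a limit of 0.05 gives when no gene differs. With TMM scaling computed within each organ, which moved the median difference over all measured genes from -0.10 to 0.02, these counts were 398 and 238. A kidney change called by itself was one whose size was shown to exceed 0.4 on the log2 scale (edgeR glmTreat, adjusted p under 0.05). By that rule 112 genes rose (0.951% of those measured in both organs) and 128 fell (1.09%) in kidney, while 24 rose (0.204%) and 210 fell (1.78%) in liver. Over all 16075 genes tested, 125 rose and 145 fell in kidney, and with scaling within each organ 159 rose and 121 fell. These counts depend strongly on single libraries. The kidney calls, 270 in all, numbered 3 without the first kidney control, and the liver calls, 243 in all, numbered 5 without the first liver control and 0 by limma-voom or when liver was fitted alone. Every organ call that follows carries that limit.

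The called genes of kidney and liver overlapped, and none was called in opposite directions. Both organs called 81 genes, of which 10 rose and 71 fell. A further 102 genes were called up and 57 down in kidney alone, and 14 were called up and 139 down in liver alone. Being called in one organ alone does not show that the organs differ, and apart from Plk3 no gene that was called in an organ also passed the interaction test. Of the 102 genes called up in kidney alone, 94 had a positive value in liver too. Their median log2 change was 2.25 in kidney and 0.86 in liver. All 139 genes called down in liver alone had a negative value in kidney, with medians of -2.22 in liver and -1.22 in kidney.

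**Figure D1:**
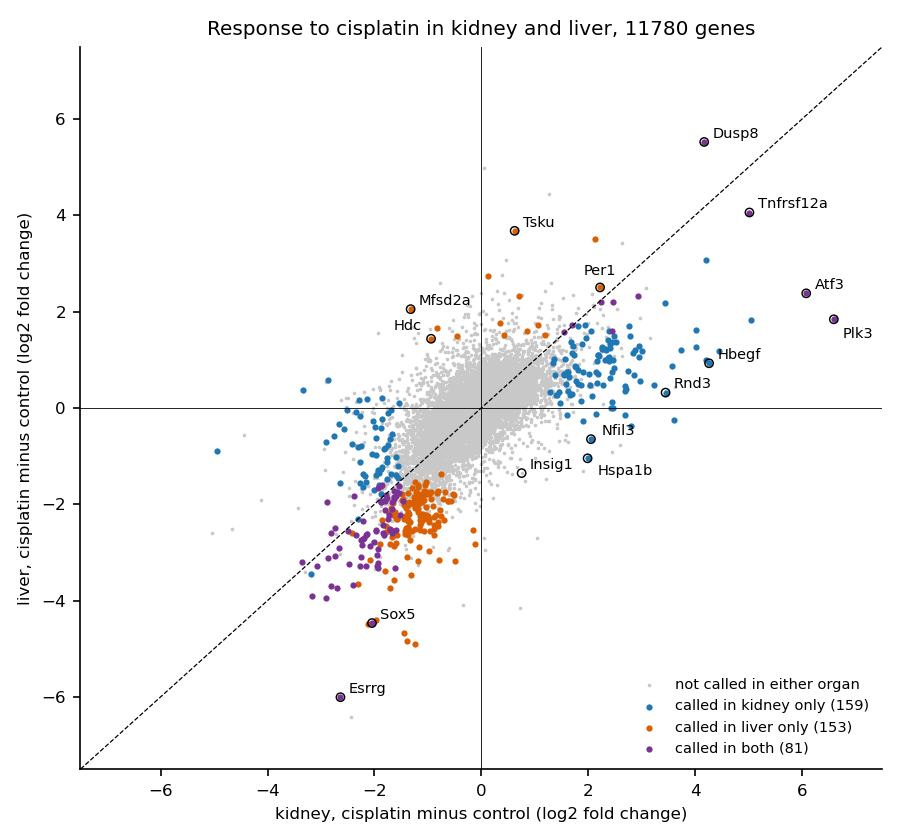
Log2 change from control to cisplatin in kidney (horizontal axis) against liver (vertical axis) for 11780 genes measured in both organs, with genes coloured by the organ in which they were called and the dashed line marking equal change. Plk3 at 6.60 and 1.84 lies furthest right, the 139 genes called down only in liver all lie below the dashed line, and no gene called in both organs lies at the upper left or lower right.

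Across these 11780 genes the kidney and liver changes correlated at 0.65 (Pearson) and 0.66 (Spearman), and 73.1% of genes had the same sign in both organs. The organs share no library. Within one organ, changes computed from separate control and cisplatin libraries gave Pearson coefficients of 0.83 or 0.45 in kidney and 0.58 or 0.20 in liver, depending on which control was set against which cisplatin library. Between kidney and liver, changes were computed only from control and cisplatin libraries of the same number, with coefficients between 0.52 and 0.59. Within an organ, that choice gave the higher values, 0.83 and 0.58. Genes are not independent replicates and no p is given.

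Among the genes that rose in both organs with no interaction call, the 3 largest changes belonged to Atf3, Dusp8 and Tnfrsf12a. The promoters of Plk3 and these 3 genes are shown because these genes rose in both organs. Each sequence runs 5′ to 3′ on the strand of the gene from 250 bases before to 50 bases after the start of the RefSeq transcript (build GRCm38.p6). Capitals mark matches on either strand to the cAMP response element TGACGTCA, the AP-1 site TGANTCA, the E-box CACGTG, the D-box TTATGTAA, the heat shock unit GAANNTTC or the p53 half-site.
Plk3: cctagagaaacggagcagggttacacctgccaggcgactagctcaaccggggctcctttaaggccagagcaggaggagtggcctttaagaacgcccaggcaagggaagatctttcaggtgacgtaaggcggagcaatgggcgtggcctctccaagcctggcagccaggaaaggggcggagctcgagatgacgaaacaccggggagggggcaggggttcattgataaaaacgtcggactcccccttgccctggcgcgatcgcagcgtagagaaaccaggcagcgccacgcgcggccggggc
Atf3: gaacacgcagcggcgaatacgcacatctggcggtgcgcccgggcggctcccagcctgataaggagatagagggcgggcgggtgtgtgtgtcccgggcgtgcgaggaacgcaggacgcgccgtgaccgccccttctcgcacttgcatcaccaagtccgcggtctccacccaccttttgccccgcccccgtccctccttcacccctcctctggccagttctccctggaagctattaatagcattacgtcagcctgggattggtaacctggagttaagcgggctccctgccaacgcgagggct
Dusp8: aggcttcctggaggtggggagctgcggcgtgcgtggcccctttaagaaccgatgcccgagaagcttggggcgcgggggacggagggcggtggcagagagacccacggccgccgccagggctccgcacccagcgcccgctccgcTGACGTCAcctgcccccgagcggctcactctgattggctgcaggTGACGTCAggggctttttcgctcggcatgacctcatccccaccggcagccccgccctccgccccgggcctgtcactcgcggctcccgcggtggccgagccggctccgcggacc
Tnfrsf12a: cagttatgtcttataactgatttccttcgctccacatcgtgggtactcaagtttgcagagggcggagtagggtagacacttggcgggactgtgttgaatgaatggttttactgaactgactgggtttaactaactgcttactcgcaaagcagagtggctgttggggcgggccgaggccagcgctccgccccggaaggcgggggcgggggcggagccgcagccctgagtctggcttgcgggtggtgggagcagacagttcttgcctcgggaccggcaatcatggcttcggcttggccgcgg

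These windows lie at chr4:117133914-117134213 (Plk3), chr1:191183284-191183583 (Atf3), chr7:142095235-142095534 (Dusp8) and chr17:23677400-23677699 (Tnfrsf12a), all on the minus strand, and span the upstream region and the first bases of the transcript. The Dusp8 window holds 2 cAMP response elements, starting 107 and 63 bases before the transcript start. Of 32851 promoter windows of the same length, 1.79% hold such an element, 7.81% an AP-1 site, 7.15% an E-box, 0.938% a D-box, 7.86% a heat shock unit and 8.36% a p53 half-site. Windows were listed for 9 of the 10 genes called up in both organs. Among these 9, 1 held the cAMP response element, 2 an E-box (Gadd45b and Klf4), 1 a heat shock unit (Jun) and none the other 3 motifs. A match is a description of letters only.

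Atf3, a stress-induced transcription factor that joins AP-1 complexes, stood at 1.44 and 2.67 CPM in control kidney and at 124 and 161 CPM in cisplatin kidney. In liver it stood at 2.53 and 2.00 CPM in controls and at 7.43 and 16.3 CPM after cisplatin. The levels of the control groups overlapped between the organs and those of the cisplatin groups did not. The log2 change was 6.08 ± 0.50 in kidney and 2.38 ± 0.44 in liver, both called, and the difference of 3.70 ± 0.60 did not pass (adjusted p = 0.159).

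Dusp8, a phosphatase that acts on stress-activated MAP kinases, went from 3.62 and 5.39 CPM to 80.8 and 83.0 CPM in kidney. In liver it went from 0.24 and 0.71 CPM to 11.9 and 32.3 CPM. It rose in both organs, by log2 values of 4.17 ± 0.55 and 5.53 ± 0.63, with kidney at the higher level before and after treatment. Tnfrsf12a, the receptor for the cytokine TWEAK, went from 9.65 and 12.9 CPM to 347 and 387 CPM in kidney and from 5.52 and 6.03 CPM to 41.7 and 151 CPM in liver. It too rose in both, with log2 changes of 5.02 ± 0.58 and 4.06 ± 0.56, and its 2 liver cisplatin libraries lay further apart than any other pair.

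Jun, Klf4, Klf10 and Cebpb, which encode transcription factors of early responses, also rose in both organs. Jun changed by a log2 of 2.94 ± 0.30 in kidney and 2.34 ± 0.30 in liver. Klf4 changed by 1.69 ± 0.27 and 1.73 ± 0.28, Klf10 by 1.55 ± 0.28 and 1.57 ± 0.28, and Cebpb by 2.23 ± 0.40 and 2.20 ± 0.39. The difference between the organs for Klf10 was -0.02 ± 0.39 and for Cebpb 0.03 ± 0.53. Values this close to 0 changed sign with other scalings (Klf4 and Klf10) or with a library left out (all 3 of Klf4, Klf10 and Cebpb), and standard errors of this size do not show that the organs respond alike.

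Among genes called up in kidney with small values in liver, no interaction passed after adjustment. Hbegf, a ligand of the EGF receptor, was second in order of p. It stood at 11.6 and 11.4 CPM in control kidney and at 196 and 245 CPM in cisplatin kidney, against 1.78 and 2.23 CPM in control liver and 4.14 and 3.504 CPM in cisplatin liver. The kidney change was 4.26 ± 0.28, the liver change 0.93 ± 0.27, and the difference 3.33 ± 0.37 with an adjusted p of 0.0558. It passed with RLE scaling (adjusted p = 0.0478) and by DESeq2 (adjusted p = 6.93e-10), and not by limma-voom (adjusted p = 0.2). Both cisplatin libraries lay above both controls in each organ, but only the kidney change was called. In liver 2342 of all 11780 measured genes were separated in the same way.

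Rnd3, a small GTPase that loosens the actin cytoskeleton, Gadd45a, a stress sensor of the p53 and ATF4 pathways, and Dnajb4, a co-chaperone, were named after their values were seen. Rnd3 rose from 8.87 and 9.84 CPM to 104 and 101 CPM in kidney and stood at 25.1 and 26.3 CPM in control liver and 42.0 and 22.2 CPM in cisplatin liver. The liver groups overlapped. The differences between the organs were 3.13 ± 0.45 for Rnd3, 2.42 ± 0.37 for Gadd45a and 2.34 ± 0.34 for Dnajb4, with adjusted p between 0.121 and 0.132.

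**Figure D2:**
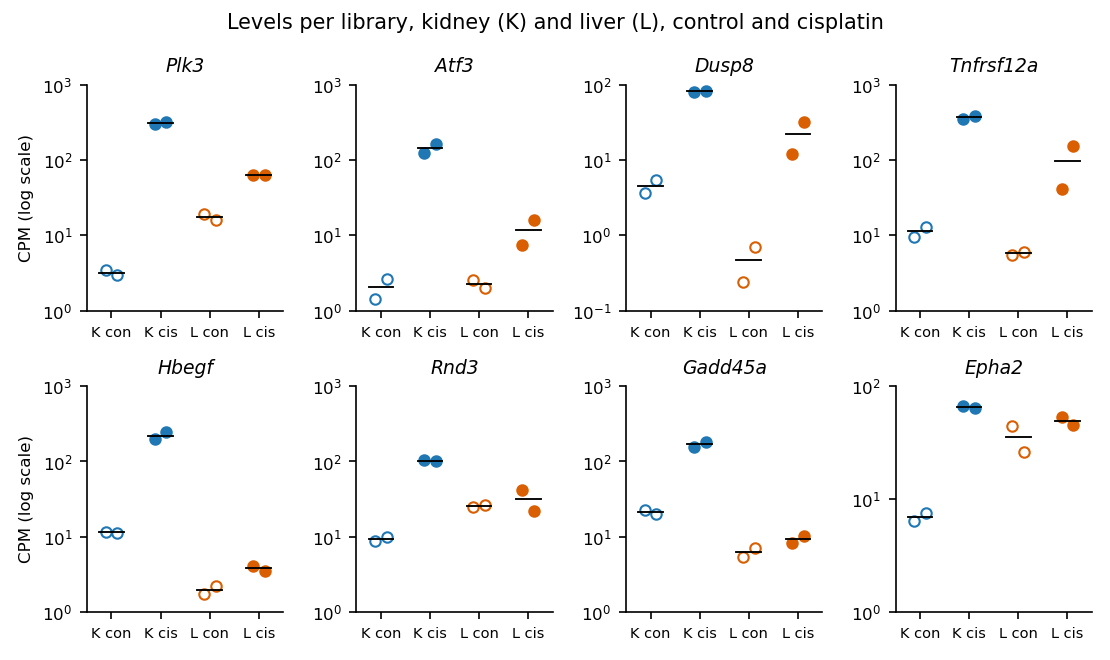
CPM per library on a log axis for 8 genes in control (open) and cisplatin (filled) kidney (blue) and liver (orange), with 2 libraries per group and a bar at each mean. Plk3, Hbegf, Rnd3 and Gadd45a were far higher in cisplatin than in control kidney, whereas in liver the cisplatin points lie within 4-fold of the controls for these genes, and Dusp8 and Tnfrsf12a rose in both organs.

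The list of 30 immediate-early and AP-1 genes, which are switched on within minutes to hours of growth or stress signals, held the most genes called in kidney among the 15 lists. Of 25 members measured in both organs, 17 rose in kidney and 5 in liver, and none fell in either. The shares of all measured genes that rose were 0.951% in kidney and 0.204% in liver. All 25 had both cisplatin kidney libraries above both controls, as did 22.8% of all measured genes. In liver 22 of the 25 were separated in this way, as were 2342 of all 11780 measured genes. The median log2 change was 2.31 in kidney and 1.25 in liver, beside medians of -0.11 and 0.04 over all measured genes. The unadjusted interaction p was under 0.05 for 13 of the 25, all with the larger change in kidney, against 2.48% of all measured genes. This list and the others were written with earlier results of these data known, so such counts are a description only.

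Within this list, Zfp36 and Ccn1 had liver groups that overlapped. Zfp36, which destabilises cytokine mRNAs, was at 15.8 and 20.2 CPM in control kidney and 90.8 and 108 CPM in cisplatin kidney. In liver it was at 52.4 and 63.3 CPM in controls and at 45.6 and 70.5 CPM after cisplatin. Ccn1, a secreted matrix protein, was at 17.5 and 26.2 CPM against 110 and 129 CPM in kidney, and at 15.9 and 9.52 CPM against 14.6 and 13.3 CPM in liver. Both rose in kidney, with differences between the organs of 2.47 ± 0.41 and 2.31 ± 0.45 that did not pass after adjustment (adjusted p = 0.177 and 0.291). Maff, Egr1, Myc, Klf6 and Junb rose in kidney by log2 values of 4.44, 4.02, 2.95, 3.01 and 2.40, and their liver values lay between 0.63 and 1.29. Ier3, an early gene that modulates survival signals, was the one member called in liver but not in kidney, with log2 changes of 1.52 and 1.20.

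Of 29 measured p53 targets, 7 rose in kidney (Plk3, Plk2, Epha2, Btg2, Gdf15, Cdkn1a and Pmaip1) and Plk3 was the one called in liver. Of all measured genes, 0.951% rose in kidney and 0.204% in liver. Both cisplatin libraries lay above both controls for 21 of the 29 in kidney and 17 in liver. Of all 11780 measured genes, 2687 and 2342 were separated so. The list medians were close, 0.66 in kidney and 0.74 in liver. An unadjusted interaction p under 0.05 was found for 6 members, each with the larger change in kidney, against 2.48% of all measured genes. The median difference of 0.05 became 0.35 without liver cisplatin replicate 1 and 0.43 without liver cisplatin replicate 2. Cdkn1a, the cell cycle inhibitor p21, was at 10.8 and 24.5 CPM in control kidney and 299 and 354 CPM in cisplatin kidney, and at 7.57 and 44.6 CPM in control liver and 150 and 293 CPM in cisplatin liver. Cisplatin libraries were above controls in both organs and the liver controls differed from each other by more than 4-fold. The difference between the organs was 1.12 ± 0.99 (adjusted p = 1.00), and without the second liver control it took the opposite sign (-0.54). Gdf15, a stress hormone that curbs appetite, was at 5.47 and 4.96 CPM against 140 and 204 CPM in kidney and at 5.49 and 6.32 CPM against 10.2 and 31.5 CPM in liver. Control levels were close in the organs and cisplatin levels did not overlap. The difference of 3.23 ± 0.65 had an adjusted p of 0.291. Pmaip1, the apoptosis inducer Noxa, was at 19.5 and 7.17 CPM against 278 and 208 CPM in kidney and at 2.29 and 1.15 CPM against 5.12 and 1.71 CPM in liver, where the groups overlapped.

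The other stress lists held fewer calls, beside 0.951% of all measured genes called up in kidney and 0.204% in liver. Of 16 measured genes of the integrated and ER stress responses, 4 rose in kidney (Dnajb9, Atf4, Ddit3 and Ppp1r15a) and 1 in liver (Nupr1), with list medians of 0.85 and 0.44. Ddit3, the pro-apoptotic factor CHOP, was at 9.39 and 7.96 CPM against 37.6 and 40.0 CPM in kidney and at 7.39 and 7.58 CPM against 8.33 and 13.1 CPM in liver. Of 20 NRF2 targets, which defend against oxidants, 2 rose in kidney (Osgin1 and Srxn1) and none in liver. Hmox1, the heme oxygenase of this list, had kidney libraries that differed widely, with 17.5 and 102 CPM in controls and 1048 and 425 CPM after cisplatin, and was not called. It was at 48.6 and 54.0 CPM against 80.7 and 57.6 CPM in liver. Of 14 heat shock chaperones, 2 rose in kidney (Hspa1b and Hspb1) and none in liver, and 12 of the 14 had the larger value in kidney, against 4834 of all 11780 measured genes. Hspa1b has a near-identical copy, Hspa1a, so its reads may be shared between the copies. The NF-kB and chemokine list had 1 call among 15 members (Cxcl1, up in kidney), and the tubule injury list had 1 among 11 (Hbegf, up in kidney). Leukocyte markers summed to between 305 and 449 CPM in control and 380 and 414 CPM in cisplatin kidney.

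**Figure D3:**
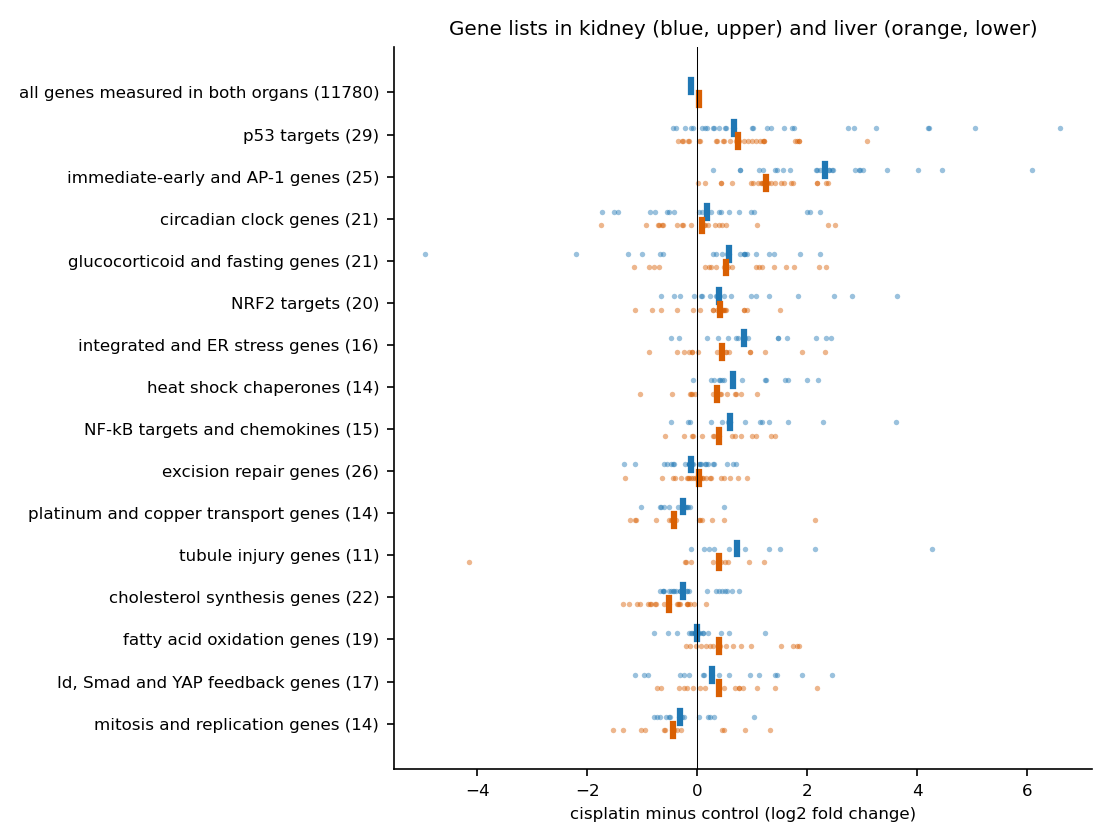
Log2 change from control to cisplatin for the measured members of 15 gene lists (dots) with list medians (bars) in kidney (blue, upper row) and liver (orange, lower row), and the medians of all measured genes at the top. The immediate-early and AP-1 list has the highest median in both organs, 2.31 in kidney and 1.25 in liver, while the p53 target medians of 0.66 and 0.74 lie side by side.

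No gene met the definition of an opposite response, which required the interaction test to be passed. With the replicate number fitted as a block within each organ, 13 genes met it. Without the interaction requirement, both cisplatin libraries lay above both controls in kidney and below both in liver for 67 genes (0.569%). The reverse held for 240 genes (2.04%). Separation in the same direction in both organs was more frequent, with 1318 genes up and 2071 down. Counted in each organ by itself, 2687 genes were separated up and 4245 down in kidney, and 2342 up and 2780 down in liver. The median change over all measured genes was -0.11 in kidney and 0.04 in liver, and its part in these counts was not tested. An unadjusted interaction p under 0.05 was found for 37 of the 67 and 108 of the 240. Both sets were chosen by the separation of the same libraries, so these counts are partly fixed by the choice and lend no support. The genes described next come from these sets and, unless they belong to a list, were named after their values were seen.

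Nfil3, a repressor that opposes the clock output factors Dbp, Tef and Hlf, was at 11.9 and 16.4 CPM in control kidney and rose to 57.4 and 60.2 CPM. In liver it was at 75.3 and 93.8 CPM in controls and at 57.3 and 50.7 CPM after cisplatin. Control liver thus held several times more Nfil3 RNA than control kidney, and the cisplatin groups of the organs overlapped. The kidney change of 2.05 ± 0.27 was called, the liver change of -0.65 ± 0.26 was not, and the difference of 2.70 ± 0.37 had an adjusted p of 0.121. Hlf and Tef, on which Nfil3 acts in opposition, had kidney log2 values of -1.51 and -0.86 and liver values of -0.29 and 0.11, with no calls. Per1, a clock gene that also responds to glucocorticoids and stress, rose in liver from 6.76 and 11.0 CPM to 60.4 and 40.4 CPM, and in kidney it was at 8.76 and 24.7 CPM before and 75.6 and 81.4 CPM after, which was not called. Of 21 measured clock genes, Nfil3 in kidney and Per1 in liver were the only ones called.

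Mfsd2a, a transporter of lysophospholipids that is induced by fasting in liver, moved the other way. It was at 29.4 and 28.5 CPM in control kidney and 9.42 and 13.6 CPM in cisplatin kidney. In liver it rose from 56.8 and 89.5 CPM to 263 and 344 CPM. The kidney value of -1.32 ± 0.32 was not called, and the difference of -3.38 ± 0.46 had an adjusted p of 0.121. Hdc, which makes histamine from histidine, was at 177 and 176 CPM in control kidney and 83.9 and 100 CPM in cisplatin kidney, and rose in liver from 5.04 and 4.23 CPM to 12.2 and 13.0 CPM. Umod, a kidney marker, was at 2.14 and 0.56 CPM in the control liver libraries and at 0.70 and 9.75 CPM in the cisplatin liver libraries. In the kidney libraries it lay between 2752 and 4269 CPM. The part of kidney RNA in the Hdc value was not tested. Mfsd2a and Hdc were named after their values were seen.

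Insig1, which holds back sterol synthesis, was at 43.5 and 44.9 CPM in control kidney and 65.9 and 83.5 CPM after cisplatin. In liver it was at 559 and 767 CPM and then at 218 and 302 CPM. Neither organ's change was called and the difference of 2.11 ± 0.44 had an adjusted p of 0.311. Idi1, an enzyme of sterol synthesis that like Insig1 responds to the sterol regulator SREBP2, had a kidney value of 0.62 and a liver value of -0.78, and the libraries of both organs were separated in these directions. Over 22 cholesterol synthesis genes the median was -0.25 in kidney and -0.52 in liver, with no calls. The median difference of 0.32 became 1.16 without liver cisplatin replicate 2 and 0.22 without liver cisplatin replicate 1.

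Foxo1 and Nr1i2 were lower in cisplatin kidney and higher in cisplatin liver with no call in either. Foxo1, a transcription factor of the fasting response, was at 47.8 and 71.5 CPM against 25.9 and 36.5 CPM in kidney and at 55.9 and 72.0 CPM against 101 and 126 CPM in liver. Nr1i2, the xenobiotic receptor PXR, was at 11.4 and 10.1 CPM against 5.82 and 5.02 CPM in kidney and at 88.8 and 118 CPM against 170 and 237 CPM in liver. Clcn5, a chloride transporter of tubule endosomes, was at 106 and 119 CPM against 202 and 195 CPM in kidney. In liver it was at 10.9 and 9.61 CPM against 4.73 and 2.43 CPM. Their differences between the organs had adjusted p between 0.291 and 0.380.

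**Figure D4:**
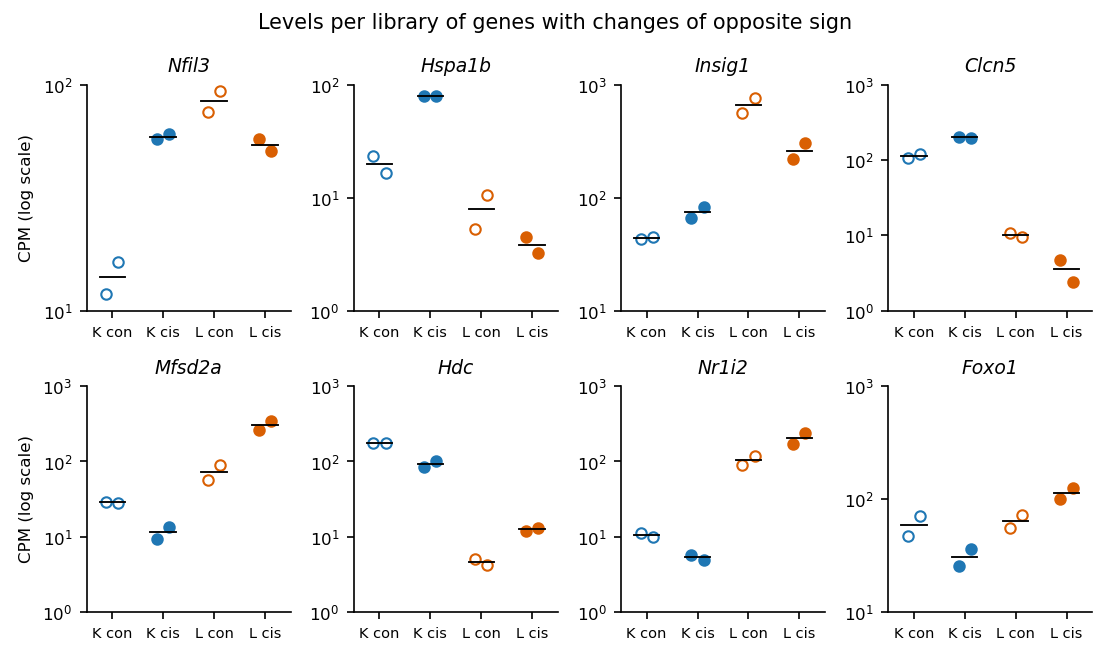
CPM per library on a log axis for 8 genes whose cisplatin libraries lay on opposite sides of the controls in kidney (blue) and liver (orange), with open symbols for control, filled symbols for cisplatin and bars at the means of 2 libraries. Nfil3, Hspa1b, Insig1 and Clcn5 were higher after cisplatin in kidney and lower in liver, and Mfsd2a, Hdc, Nr1i2 and Foxo1 the reverse. None of these 8 passed the interaction test in the reported edgeR fit. All of them but Foxo1 passed in DESeq2, and all but Hspa1b passed in edgeR with the replicate number as a block.

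The genes called up in liver alone numbered 14, and 9 of them had an unadjusted interaction p under 0.05 in favour of liver. They were chosen by their calls in the same fit, so this count is partly fixed by the choice. Tsku, a secreted protein made by liver that was named after its values were seen, rose from 11.3 and 42.9 CPM to 246 and 449 CPM in liver and was at 4.36 and 11.0 CPM against 11.2 and 12.8 CPM in kidney. Cebpd, a factor of the acute phase response, rose in liver from 5.61 and 5.82 CPM to 18.4 and 20.4 CPM, and in kidney it was at 21.3 and 20.98 CPM against 28.6 and 25.3 CPM. Pex11a, a PPARα target that divides peroxisomes, rose in liver from 82.4 and 104 CPM to 254 and 279 CPM, and in kidney was at 43.8 and 50.8 CPM against 58.2 and 69.6 CPM. Pex11a was the only call among 19 fatty acid oxidation genes. Of these 19, 18 had the larger value in liver, against 6946 of all 11780 measured genes, and the list medians were -0.01 in kidney and 0.40 in liver. Their median difference of -0.50 was -0.01 without liver cisplatin replicate 2 and -0.78 without liver cisplatin replicate 1. Of 21 glucocorticoid and fasting genes, 3 rose in liver (Cebpb, Cebpd and Arrdc2), 2 rose in kidney (Cebpb and Pdk4) and 1 fell in kidney. That gene, Tat, a liver enzyme of tyrosine breakdown, was at 1.37 and 1.87 CPM in control kidney beside 2081 and 2322 CPM in control liver and at 0.18 and 0 CPM in cisplatin kidney. The liver markers were also lower in cisplatin kidney, and their part in this fall was not tested.

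The last 4 lists held few calls or none. Among 26 excision repair genes the medians were -0.12 in kidney and 0.03 in liver with no call, and none had an unadjusted interaction p under 0.05. Among 14 platinum and copper transport genes the medians were -0.26 and -0.43, and among 14 mitosis and replication genes they were -0.31 and -0.44, again with no call. Of the transport genes, 2 had an unadjusted interaction p under 0.05, both with the larger value in liver, against 2.56% of all measured genes. Of 17 Id, Smad and YAP feedback genes, 2 rose in kidney (Ccn1 and Tgif1) and none in liver, with medians of 0.27 and 0.39.

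The genes that fell were mostly long in both organs, and the longest had the lower median in liver. Of 529 measured genes spanning 200 kb or more, 72 fell in kidney (13.6%) and 154 in liver (29.1%), 55 of them in both, and none rose. Of 2809 genes spanning under 10 kb, 8 fell in kidney and none in liver, while 63 rose in kidney (2.24%) and 14 in liver (0.498%). Over all measured genes, 1.09% fell in kidney and 1.78% in liver, and 0.951% and 0.204% rose. The median log2 change over the 529 longest genes was -1.05 in kidney and -1.46 in liver, and the median difference of 0.42 lay between 0.22 and 0.65 when each of the 8 libraries was left out in turn. An unadjusted interaction p under 0.05 was found for 70 of them with the lower value in liver and for 12 in the other direction. The shares of all measured genes in these directions were 2.48% and 2.56%. Medians per library for these genes, against the mean of the organ's controls, were -1.18 and -0.88 in the kidney cisplatin libraries and -1.33 and -1.60 in the liver cisplatin libraries. Both liver libraries were thus below both kidney libraries.

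For genes under 10 kb, the corresponding medians were 0.09 and 0.21 in kidney and 0.08 and 0.64 in liver. The higher liver value belonged to replicate 2 alone. The median difference between the organs was -0.24 with all libraries and 0.28 without liver cisplatin replicate 2, so its sign rested on that library. Among genes with 2 to 5 kb of exons, a limit chosen after seeing the data, the median difference was 0.26 for 60 genes of 200 kb or more and -0.19 for 1586 genes under 10 kb.

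**Figure D5:**
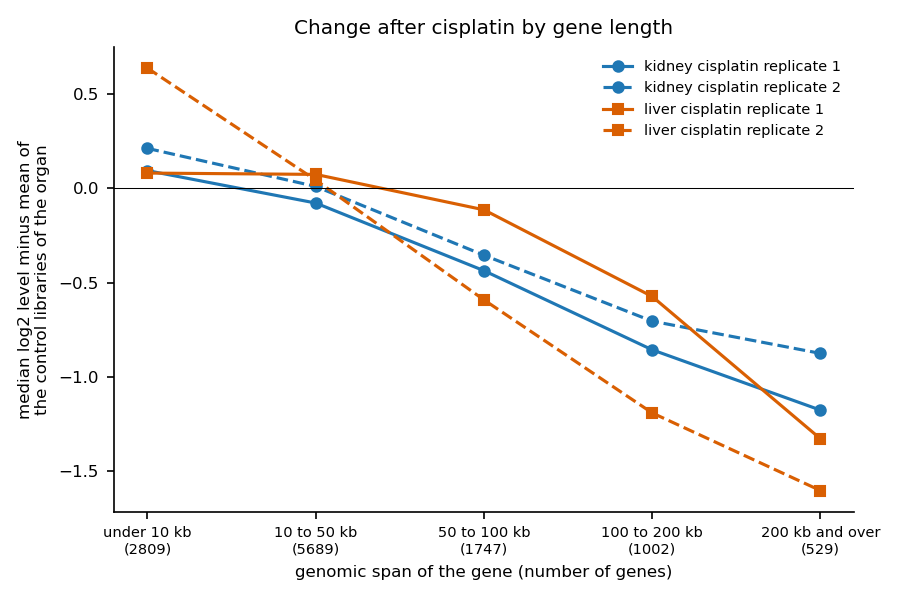
Median log2 level of each cisplatin library minus the mean of its organ's control libraries (vertical axis) for genes in 5 classes of genomic span (horizontal axis, number of genes in brackets), with kidney in blue, liver in orange, replicate 1 as a solid and replicate 2 as a dashed line. All 4 lines fall with span, to -1.18, -0.88, -1.33 and -1.60 at 200 kb and over, and liver replicate 2 stands above the other 3 at under 10 kb.

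Long genes that fell in both organs include Esrrg, Sox5 and Thrb, all transcription factors, the last 2 of which were named after their values were seen. Esrrg, an orphan nuclear receptor of oxidative metabolism spanning 606 kb, was at 72.9 and 68.8 CPM against 10.5 and 12.3 CPM in kidney and at 7.81 and 6.20 CPM against 0 and 0.22 CPM in liver. Sox5, spanning 954 kb, was at 2.37 and 3.70 CPM against 0.53 and 0.89 CPM in kidney and at 24.1 and 26.5 CPM against 1.33 and 0.94 CPM in liver. Thrb, the thyroid hormone receptor β, was at 40.1 and 39.7 CPM against 5.51 and 5.83 CPM in kidney and at 59.8 and 55.0 CPM against 5.28 and 3.504 CPM in liver. Sox5 fell by 2.04 in kidney and by 4.47 in liver on the log2 scale, and Thrb by 2.81 and 3.70. The differences for Sox5 and Thrb were 2.42 ± 0.55 and 0.89 ± 0.38, and neither passed after adjustment (adjusted p = 0.334 and 0.852). Tenm3, a cell adhesion protein of 616 kb named after its values were seen, fell in liver from 41.0 and 25.2 CPM to 4.46 and 2.83 CPM and was at 1.89 and 2.43 CPM against 1.51 and 1.56 CPM in kidney.

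XR-seq, which sequences the short DNA fragments cut out by excision repair, was measured in 2 cisplatin libraries of each organ and gives a readout that the expression comparison did not use. Reads from the transcribed strand of 18732 genes were tested between the organs with edgeR, relative to all such reads of a library. The share was higher in kidney for 3073 genes (16.4%) and higher in liver for 4025 genes (21.5%). The total of 7098 was 11485 without the second kidney XR-seq library and 4696 without the second liver XR-seq library. No XR-seq value was analysed here for Plk3. Atf3 had 81.9 and 98.9 CPM of transcribed-strand reads in kidney and 37.2 and 22.9 CPM in liver, a log2 difference of 1.59 ± 0.26 (adjusted p = 0.00171). Dusp8 had 146 and 177 CPM in kidney and 80.1 and 73.4 CPM in liver, a difference of 1.07 ± 0.16 (adjusted p = 0.00111). Hbegf did not differ beyond its spread, with 53.7 and 63.1 CPM against 47.7 and 57.4 CPM and a difference of 0.15 ± 0.19 (adjusted p = 0.591). Sox5 had 106 and 119 CPM in kidney against 1258 and 1168 CPM in liver, the organ with the higher Sox5 RNA before treatment.

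Of the 102 genes called up in kidney alone, 42 had more transcribed-strand repair reads in kidney and 3 in liver, with a median log2 difference of 0.60. Of the 139 genes called down in liver alone, 126 had more in liver and 6 in kidney, with a median of -1.18. Genes called down in kidney alone also had more in liver (40 against 9 of 55, median -1.15), as did genes that fell in both organs (60 against 4 of 71, median -0.99). Over all 11661 measured genes with both readouts, 2018 had more in kidney and 3167 in liver. The genes called up in kidney alone and down in liver alone had median spans of 9.11 kb and 266 kb, and repair reads differed with length as well, by a median of 0.18 for genes under 10 kb and of -0.88 for genes of 200 kb or more. The part of length in the repair difference was not tested. Across 11661 genes with both measures, the repair difference between the organs had Pearson and Spearman coefficients of 0.03 and 0.03 with the difference in response, and of 0.49 and 0.15 with the difference in control RNA level, as a description across genes.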

How the data were processed

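The authors aligned 50-bp paired-end RNA-seq reads to mm10 with STAR and deposited featureCounts counts per gene and library. For XR-seq they deposited counts of reads on the transcribed strand per gene, which were used here, and on the other strand, which were not. The submitters' processing notes also name BWA, cutadapt, Picard and DESeq2. The RNA kit does not mark strand, so reads of a gene and an overlapping antisense gene cannot be told apart. In XR-seq, 1 line had no identifier and was left out. Mitochondrial genes, Per3 and Cyp11b2 were not analysed here.

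From these counts, edgeR 4.0.16 (R 4.3.3) was fitted to 4 group means over 8 libraries after filterByExpr and TMM scaling. Quasi-likelihood tests gave the interaction and glmTreat (log2 0.4) each organ's response, with Benjamini-Hochberg adjusted p under 0.05. CPM used the TMM-scaled totals, and ± is the standard error of the fit. Symbols and spans came from GENCODE M21 (GRCm38, the same assembly as mm10), which matched 25041 of 25059 genes, and promoters from RefSeq (GRCm38.p6). Scripts were tested on simulated counts.

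The gene lists, tests and the subject of the comparison were chosen with earlier results of these data known. Genes were named if they passed the interaction, were among the 4 genes called in both organs with the largest change, or belonged to a list. Any other gene is one named after its values were seen. Alternatives were other scalings, DESeq2 1.42.0, limma-voom 3.58.1, no filter, other limits, the replicate block and each library left out. Limma-voom, the limit on exon length, the 1% limit on the other organ's level and libraries left out of the length comparison were chosen after seeing the data. Counting depth was 15619474 to 55043177 reads for RNA-seq and 15662395 to 44991735 for XR-seq. With 2 libraries per group, precision is limited by the spread between libraries.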

Additional observations from a re-analysis of the deposited data

Results flagged for a closer look

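Plk3 was the one gene whose change differed between the organs by the interaction test, and that test is what drew attention to it. The difference between kidney and liver of its log2 change was 4.75 ± 0.37 (SE, 2 libraries per group, edgeR's quasi-likelihood test, adjusted p = 0.00414). Both cisplatin libraries were above both controls in each organ. Groups of 2 libraries are too small to test whether a single library lies far from the others.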

How the results depend on the processing

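With 2 libraries per group, counts of calls moved strongly. The interaction count of 1 was 2 with RLE scaling, 130 with DESeq2, 197 without the filter and 47 with the replicate block, and 0 to 7 when 1 library was left out (0 without either kidney control, 2 without the second liver control, 5 and 7 without the first or second liver cisplatin library). The kidney count of 270 was 1284 with the replicate block, 417 with DESeq2, 1036 without the filter, 555 against a change of 0, 782 in a fit of kidney alone and 801 with limma-voom, and 3 to 850 with a library left out. The liver count of 243 was 888, 369, 867, 391, 0 and 0 under the same alternatives, and 5 to 1306 with a library left out. Genes called in both organs without an interaction numbered 80, 434 with the replicate block, 161 against a change of 0, and 1 to 324 with a library left out.

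With the replicate block, 22 genes were kidney only, 4 liver only, 6 in both organs with an interaction and 13 opposite. Of the 61 named genes, 24 not passing the interaction in the reported fit passed with the replicate block, 34 with DESeq2, 34 without the filter and 1 with RLE scaling. Those passing with the block include Hbegf, Mfsd2a, Hdc, Nfil3, Nr1i2, Insig1, Foxo1, Clcn5 and Atf3 (adjusted p 0.0173 to 0.0367). With a library left out the classes were 0 to 6, 0 to 1, 0 to 1 and 0 to 2. The numbers were not taken to pair the libraries, since the labels do not say what a number marks. The paper adjusted for a known batch with ComBat, and its methods do not say whether the numbers mark that batch. Differences between replicates 1 and 2 correlated at 0.63 between control and cisplatin kidney, 0.47 in liver, and 0.49 and 0.28 between the organs in control and cisplatin libraries.

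The Pearson coefficient of 0.65 was 0.70 at a mean of 5 CPM and 0.55 to 0.64 with a library left out. XR-seq calls, 7098, ranged from 4696 to 11485. The median difference for genes under 10 kb, -0.24, ranged from -0.32 to 0.28. The Klf4 difference was 0.011 with DESeq2, 0.010 with RLE and 0.070 with scaling within organs, and Klf10 was 0.032, 0.031 and 0.091. With a library left out, Klf4 ranged from -0.14 to 0.18, Klf10 from -0.32 to 0.23, Cebpb from -0.31 to 0.90, Cdkn1a from -0.54 to 1.90 and Per1 from -0.84 to 0.66. The causes were not tested.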
